A study of Mus musculus with 6 samples.

Results

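The transcription factors that build the gonad were followed through 9 genes, taken by name: Wt1, Emx2, Lhx9, Nr5a1, Gata4, Gata6, Dmrt1, Nr0b1 and Six4. They were found on the array by matching each gene probe's transcript identifier to a RefSeq gene table, which gave 11 probes for the 9 genes, of 39429 gene probes in all. Lhx9 has 3 probes and the other members have 1 each. RNA was compared between somatic cells of the fetal testis (soma, 3 samples) and embryonic stem cells (ESC, 3 samples), with 1 single-dye array per sample. The soma samples came from genital ridges of male embryos at E13.5 of the cross MCH x C57BL6/J, which carried the GFP transgene labelled Oct5<delta>PE-GFP. The ESC samples are the male line VR15, which carries the reporter Vasa::RFP. No group received a treatment. The series calls the samples biological replicates, the ESC group rests on 1 line, and how soma was freed of other gonadal cells is not given in the sources used here. Soma is therefore a mixture, in which fewer cells of a type and less RNA per cell cannot be told apart.

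The gonad arises as a thickening of the coelomic epithelium over the mesonephros. WT1, EMX2, LHX9, GATA4 and SIX4 are needed for that ridge to form, and they act upstream of NR5A1, also called SF-1, the orphan nuclear receptor that drives genes of steroid synthesis and of anti-Müllerian hormone. NR0B1, also called DAX1, is an unusual nuclear receptor without a DNA-binding domain that represses NR5A1, and embryonic stem cells are known to express it. DMRT1 keeps the male fate of Sertoli cells after birth and acts in germ cells as well. GATA4 and GATA6 are also known as drivers of primitive endoderm.

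Values are scaled signals, which are the scanner's processed signal divided by the 75th percentile of gene probes on the same array. That percentile was 1323 ± 72.6 (SD, n = 3) in soma and 983 ± 29.3 (SD, n = 3) in ESC, and the two-sided exact permutation test gave p = 0.1. With 3 samples in each group no permutation p can be smaller. No spot was saturated, and the scanner software marked 56.0% to 63.2% of an array's gene probes as well above background. Pearson's r across genes was 0.994 to 0.995 within each group. Precision is limited by the number of arrays. The first slide held soma 1 and 2, read in 1 scan. The second slide held soma 3, in a scan of its own, and the ESC arrays, in another. The effect of scan and that of group therefore cannot be told apart. A fit with the slide as a fixed block takes its soma minus ESC difference from soma 3 alone. The median log2 difference of all 19664 genes tested, soma minus ESC, was -0.14. It stood at -0.02 under quantile normalization, -0.34 under scaling to the array median and 0.08 under scaling to spike-in RNA.

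All 9 members were tested, and each differed between the groups by limma with Benjamini-Hochberg adjustment over all genes. Wt1, Emx2, Lhx9, Nr5a1, Gata4, Gata6 and Dmrt1 were higher in soma, and Nr0b1 and Six4 were higher in ESC. The arrays are so different that this count carries little: 85.0% of all genes tested passed, 38.3% higher in soma and 46.6% higher in ESC, and the values of 87.2% did not overlap between the groups. What sets the members apart from each other is the size of the difference. On the log2 scale it ran from 7.19 for Nr5a1 to 0.67 for Dmrt1 among those higher in soma, and it was -1.66 for Six4 and -3.49 for Nr0b1. The members' median difference was 5.43, or 4.73 with Emx2 at its bound, beside -0.14 for all genes tested. The first is the value of Lhx9 and the second the bound of Emx2. Both genes were tested because soma was bright, which fixed their direction. The members were also chosen with earlier results of these data known, so the medians are a description only.

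**Figure D1:**
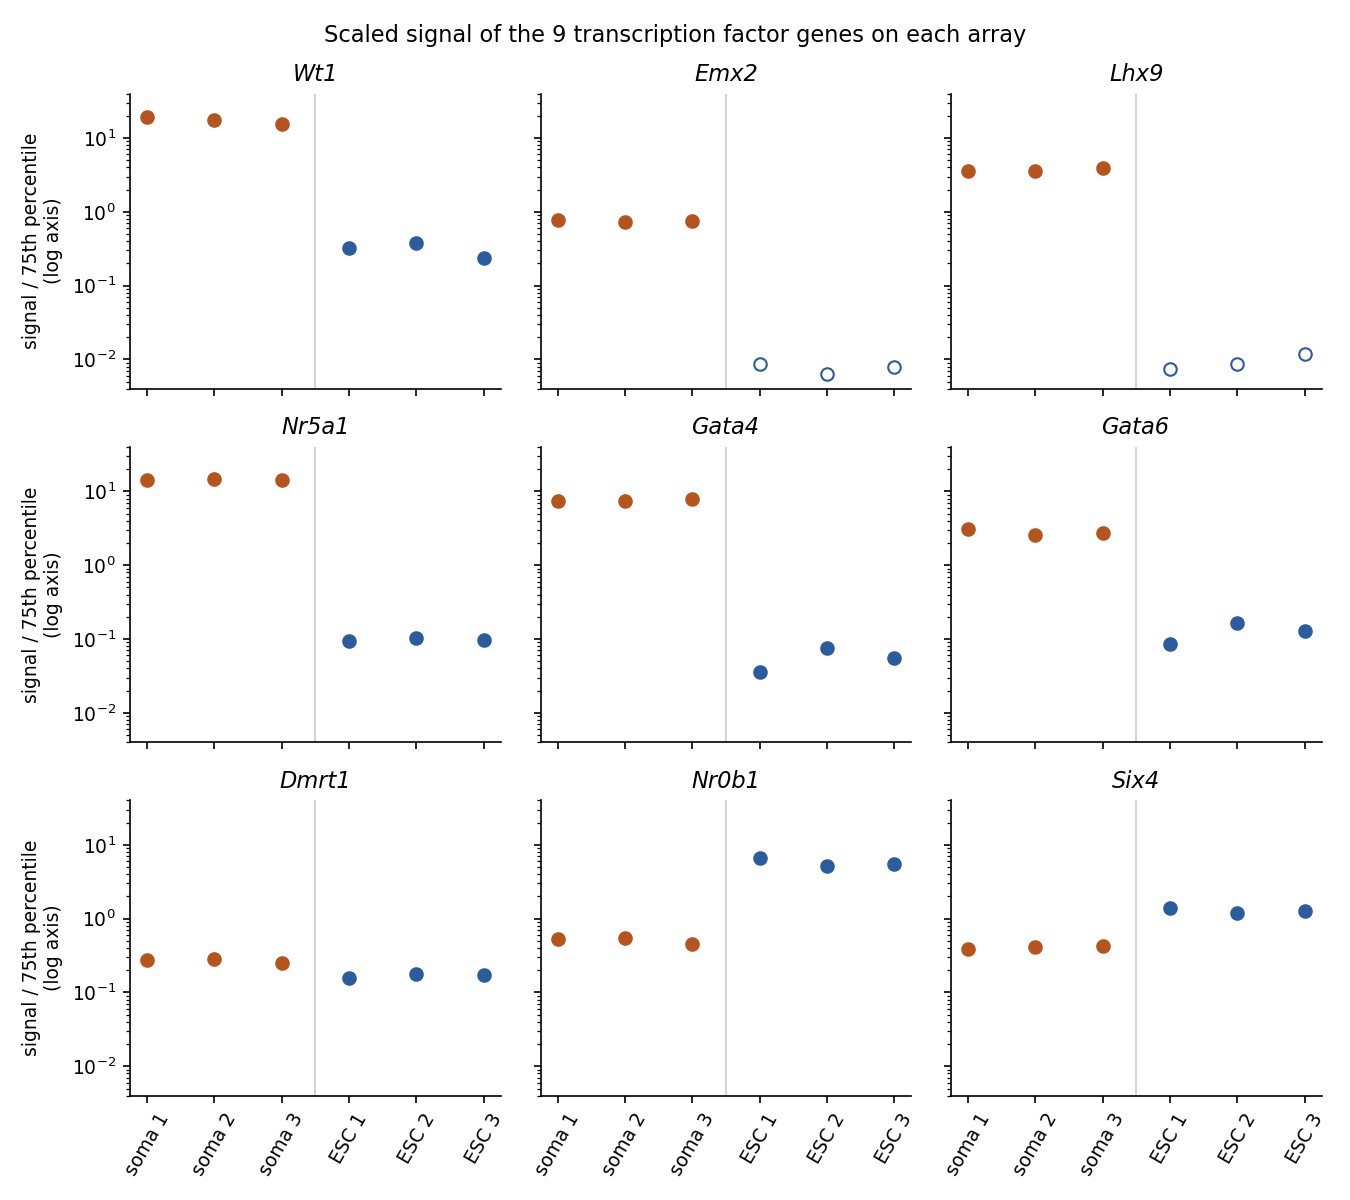
Scaled signal (signal divided by the array's 75th percentile, log axis) of the 9 genes on the 3 soma and 3 ESC arrays; each point is 1 array, and open points are probes not well above background. Lhx9 is shown by its probe A_55_P2111264. In 7 genes all soma points lie above all ESC points, and in Nr0b1 and Six4 all ESC points lie above.

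Wt1 encodes a zinc finger factor of the urogenital ridge that stays on in Sertoli cells. Its probe, A_55_P1953143 for the transcript NM_144783, read 19.1, 17.7 and 15.7 on soma 1 to 3. The ESC arrays read 0.323, 0.372 and 0.240 in the same order. Every soma array stood far above every ESC array, and the probe was well above background on all 6. The fitted difference was 57.0-fold (log2 5.83 ± 0.18, SE, n = 3 per group, adjusted p 1.01e-06). Within groups Wt1 varied more than most genes. Its SD of 0.15 among soma arrays exceeded that of 71.7% of the genes tested, with soma 1 highest and soma 3 lowest, and its SD of 0.32 among ESC arrays exceeded that of 89.9%.

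Emx2, a homeobox gene without which kidneys and gonads do not form, read 0.779, 0.724 and 0.757 on soma 1 to 3 with the probe A_52_P455251. On ESC 1 to 3 it read 0.00866, 0.00637 and 0.0079, and no ESC array was well above background. Of all genes tested 6.34% had no ESC array above background. Since such a gene is tested only because soma is bright, its direction was fixed by the filter. The soma level allows a bound of at least 26.5-fold over ESC (adjusted p 2.61e-07 in the fit). The bound replaces each dim reading by the faintest signal that the array marked as well above background, unless the reading itself is higher, and compares group means of the log2 values. It belongs to this processing: with normexp background correction the log2 difference of Emx2 was 3.37, less than the bound's 4.73. Normexp, here and wherever it is named below, includes an offset of 50 added to every signal. The processed signal of Emx2 in ESC was 6.21 to 8.79. The part of the offset in the smaller difference was not tested.

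Lhx9, a LIM-homeodomain gene whose loss leaves the ridge without a gonad, is the member with several probes. The probe A_55_P2111264, designed on NM_001025565, read 3.52, 3.54 and 3.86 in soma and 0.00748, 0.00868 and 0.0118 in ESC, where no array was above background. It gives a bound of at least 128-fold (adjusted p 3.25e-07 in the fit over all probes), log2 7.00, and with normexp the log2 difference was 5.54, less than the bound. Both other probes were designed on NM_001042577. Of these, A_55_P2117853 read 1.15, 1.24 and 1.29 in soma, and A_55_P2111267 read 0.63, 0.733 and 0.625. In ESC the probes of this transcript were above background on ESC 2 alone: A_55_P2117853 read 0.0272, 0.0534 and 0.0157 on ESC 1 to 3, and A_55_P2111267 read 0.00715, 0.190 and 0.00646. ESC 2 was thus the array that stood apart, while A_55_P2111264 was dim there as on the other ESC arrays.

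All 3 Lhx9 probes put soma higher and passed, beside 84.7% of all probes tested. Like Emx2, they were tested because soma was bright, which fixed their direction. The gene's value in the fit, from A_55_P2117853, was a log2 difference of 5.43 ± 0.43 (SE, n = 3 per group, adjusted p 4.86e-05), a 43.1-fold difference. This probe was taken because its mean log2 signal over the 6 arrays was the highest of the 3. By the mean linear signal A_55_P2111264 would be taken, and the log2 difference would be 8.63. The third probe, A_55_P2111267, gave a 32.1-fold difference (SE 1.34 on the log2 scale, adjusted p 0.0131), and its size depended on ESC 2: without that array it was 6.60 ± 0.10 on the log2 scale (adjusted p 3.39e-06). With the slide as a fixed block (adjusted p 0.0845) or on the shared slide alone (adjusted p 0.128) the probe did not pass. Over the 6 leave-one-out fits its log2 difference ran from 4.17 to 6.60.

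**Figure D2:**
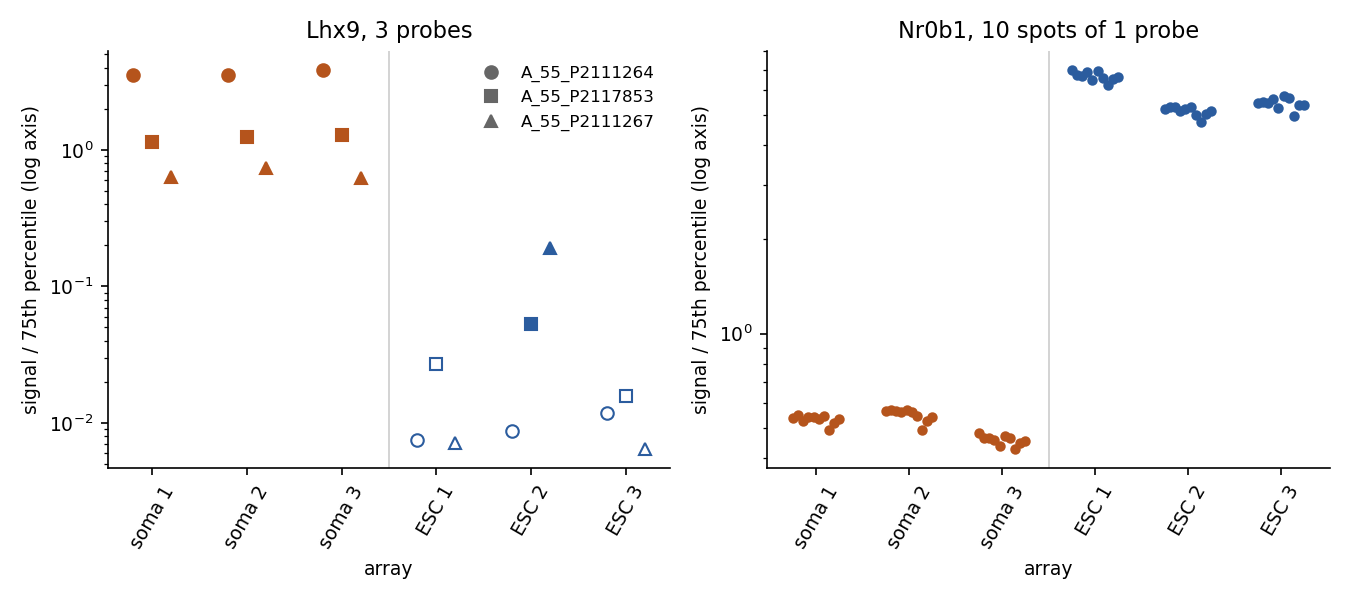
Left, scaled signal (log axis) of the 3 Lhx9 probes on each array, with open symbols for probes not well above background; the triangle of A_55_P2111267 on ESC 2 stands at 0.190, above both other ESC arrays. Right, the 10 spots of the Nr0b1 probe on each array, where all ESC spots lie between 4.75 and 6.99 and all soma spots between 0.427 and 0.568.

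Nr5a1 had the largest difference of the 9 in the fit over genes and the smallest spread in soma. The probe A_55_P2076560 read 14.2, 14.6 and 14.2 in soma, against 0.0950, 0.105 and 0.0956 in ESC. That is 146-fold (log2 7.19 ± 0.06, SE, n = 3 per group, adjusted p 1.39e-07), or log2 6.39 with normexp, and the difference ranked 177th in size among the genes tested. The soma SD of 0.02 on the log2 scale stood at the 8.09th percentile of all genes, whose median SD was 0.09. All 3 ESC arrays were marked well above background, so the ESC signal is low and is not a reading of 0.

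Nr0b1 went the other way. Its probe A_51_P106455 read 0.531, 0.548 and 0.455 in soma and, with no overlap, 6.66, 5.15 and 5.45 in ESC. ESC was 11.2-fold higher (log2 difference, soma minus ESC, -3.49 ± 0.12, SE, n = 3 per group, adjusted p 1.74e-06). The probe is printed 10 times on each array, which gives a measure of spot error that no other member has. The coefficient of variation over the 10 spots was 3.06% to 4.49% per array, an error that leaves out labelling, hybridisation and scaling. On soma 3 the highest spot, at 0.481, lay below the lowest spots of soma 1 and soma 2, at 0.491 each.

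Within an array the ratio of Nr5a1 to its repressor was higher in soma. The log2 ratio of the Nr5a1 probe to the Nr0b1 probe was 4.74, 4.74 and 4.96 in soma against -6.13, -5.62 and -5.83 in ESC. The ratio changed by 10.68 on the log2 scale (two-sided exact permutation p 0.1, the smallest possible here). Different probes bind with different strength, so the change in the ratio can be read but the sign within 1 group cannot. Beside it, naive pluripotency markers had a summed scaled signal of 344 to 362 in ESC and 10.8 to 13.0 in soma, and none of the 14 was below background on all arrays of either group. Their part in the Nr0b1 difference was not tested.

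The stretch of DNA before the start of the gene is shown for Emx2 and for Nr0b1. They are the only members with a window before the gene's outermost RefSeq start. Emx2 was not above background in ESC, and Nr0b1 was higher there than in soma. The letters are the 250 bases before the RefSeq start on GRCm38.p6, plus strand, with CG pairs and the TATAAA element in capitals.

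Emx2, chr19:59458440-59458689, plus strand: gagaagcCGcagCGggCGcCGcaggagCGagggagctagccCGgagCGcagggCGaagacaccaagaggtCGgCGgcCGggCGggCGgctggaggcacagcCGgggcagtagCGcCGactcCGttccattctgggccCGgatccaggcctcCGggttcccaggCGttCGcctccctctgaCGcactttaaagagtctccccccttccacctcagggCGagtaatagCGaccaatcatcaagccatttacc

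Nr0b1, chrX:86191525-86191774, plus strand: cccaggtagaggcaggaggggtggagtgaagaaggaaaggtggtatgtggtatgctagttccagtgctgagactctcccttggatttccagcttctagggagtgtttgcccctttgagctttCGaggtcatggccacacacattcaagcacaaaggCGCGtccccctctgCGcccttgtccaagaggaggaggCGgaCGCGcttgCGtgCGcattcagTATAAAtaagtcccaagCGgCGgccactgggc

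The Emx2 window holds 24 CG pairs and 67.2% G and C, and the Nr0b1 window holds 11 and 57.2%, beside medians of 6 and 52.4% over the 32851 windows in the table. A TATAAA begins 32 bases before the Nr0b1 start (first base at -32), and 12.4% of all windows hold one on either strand. The windows of 4 members were in the table, Lhx9 (1), Six4 (2), Emx2 and Nr0b1. They were searched on both strands for short sites of the members: AAGGTCA of the NR5A receptors (in 4.08% of all windows), which is also part of the longer site of the stem cell factor ESRRB, AGATAA of GATA factors (9.99%), TAATTA of homeodomains (4.84%), ACATTGT of DMRT1 (2.56%), TCAGGTT of SIX4 (3.49%) and GCGGGGGCG of WT1 and EGR1 (2.57%). They were also searched for the stem cell sites ATGCAAAT, the octamer (1.6%), and TTCCNGGAA of STAT factors (0.913%). The single match was TCAGGTT in 1 of the Six4 windows, on the minus strand relative to the gene, which is a match of letters only.

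Gata4 and Gata6 encode zinc finger factors with near-identical DNA binding. Gata4 read 7.45, 7.32 and 7.92 on soma 1 to 3 with the probe A_55_P2028894. In ESC it read 0.0361, 0.0765 and 0.056. The difference was 141-fold (log2 7.14 ± 0.27, SE, n = 3 per group, adjusted p 2.1e-06), and log2 6.05 with normexp. Gata6, with the probe A_51_P411917, read 3.06, 2.58 and 2.69 in soma and 0.0856, 0.163 and 0.130 in ESC, a 22.7-fold difference (log2 4.51 ± 0.24, SE, n = 3 per group, adjusted p 8.14e-06), and log2 3.92 with normexp. Neither gene overlapped between the groups, and both were marked above background on every array.

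Among the 3 ESC arrays, with 1 probe per gene, Gata4 and Gata6 deviated alike. Gata4 deviated from its ESC mean by -0.57, 0.51 and 0.06 on ESC 1 to 3 (log2) and Gata6 by -0.51, 0.42 and 0.09, so both were lowest on ESC 1 and highest on ESC 2. Their ESC SDs, 0.54 and 0.47, exceeded those of 95.9% and 94.6% of genes, and yet the SD of the Gata4 to Gata6 ratio in ESC was 0.08. In soma the ratio had an SD of 0.15. The log2 ratio of Gata4 to Gata6 was 1.45 in soma and -1.18 in ESC, a change of 2.63 (two-sided exact permutation p 0.1, the smallest possible here). The change exceeded the spread of the ratio in both groups, and no soma array overlapped an ESC array. Gata4 was near the floor in ESC. Its processed signal on ESC 1 was 36.6, where the faintest signal marked well above background was 33.3. Wt1, Nr5a1 and Dmrt1 were also highest on ESC 2 among the ESC arrays, while Emx2, Nr0b1 and Six4 were lowest there. Whether the like deviations belong to the arrays or to the 2 genes was not tested.

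Primitive endoderm markers are given beside the ESC signal of Gata4 and Gata6. Of 13 listed genes 11 were tested, with 6 higher in soma and 4 higher in ESC, and their summed scaled signal was 28.1 to 29.0 in ESC and 89.3 to 94.8 in soma. A few genes carry these sums. In ESC the laminin genes Lamb1 and Lama1 had mean log2 scaled signals of 3.97 and 3.21, and the next gene 0.25. In soma Lamb1, Col4a1 and Lama1 had 5.45, 4.54 and 4.42, and the next gene 1.35. Foxa2 was at least 42.4-fold and Hnf4a at least 17.8-fold higher in ESC, while Dab2 was 44.6-fold and the collagen gene Col4a1 81.4-fold higher in soma. No soma array was above background for 3 of the 11, Foxa2 and Hnf4a among them, and no ESC array for 1. The filter fixed the direction of these. Ttr and Afp were not tested, since neither was well above background on all arrays of a group. The part of primitive endoderm in the ESC signal of Gata4 and Gata6 was not tested.

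Dmrt1, a DM-domain gene, had the smallest difference. It read 0.271, 0.286 and 0.250 in soma, against 0.158, 0.179 and 0.170 in ESC, with the probe A_55_P2324712 above background on all 6. The lowest soma array stayed above the highest ESC array. Soma was 1.59-fold higher (log2 0.67 ± 0.08, SE, n = 3 per group, adjusted p 0.000288), and relative to the median of all genes the log2 difference was 0.81. Over the other settings it ran from 0.47 under normexp to 0.89 under spike-in scaling, or 0.54 to 0.88 relative to the median, and it passed in each of the 21 run.

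Dmrt1 is also a germ cell gene, so germ cell markers are given beside it. Of 11 listed 9 were tested, with 2 higher in soma (Nanos2, at least 16.2-fold, and Dazl, 4.16-fold), 4 higher in ESC (led by Sycp3 at 42.1-fold and Mael at 2.68-fold) and 3 that did not pass. Their summed scaled signal was 4.04, 5.32 and 7.77 on soma 1 to 3, and ESC ranged from 12.9 to 13.8. With the slide as a fixed block, where soma 3 alone is set against ESC, the list's median went from -0.40 to 0.32. Soma 3 had the highest summed signal of the soma arrays. Nanos2 was the marker with no ESC array above background, and Tdrd1 and Tdrd9 were not tested. Their part in the Dmrt1 difference was not tested.

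Six4 encodes a homeodomain factor that acts in the early ridge. It read 0.384, 0.409 and 0.419 in soma, against 1.39, 1.20 and 1.25 in ESC, with the probe A_55_P2041095. Every ESC array was above every soma array. The difference was 3.17-fold (log2, soma minus ESC, -1.66 ± 0.07, SE, n = 3 per group, adjusted p 4.19e-06).

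**Figure D3:**
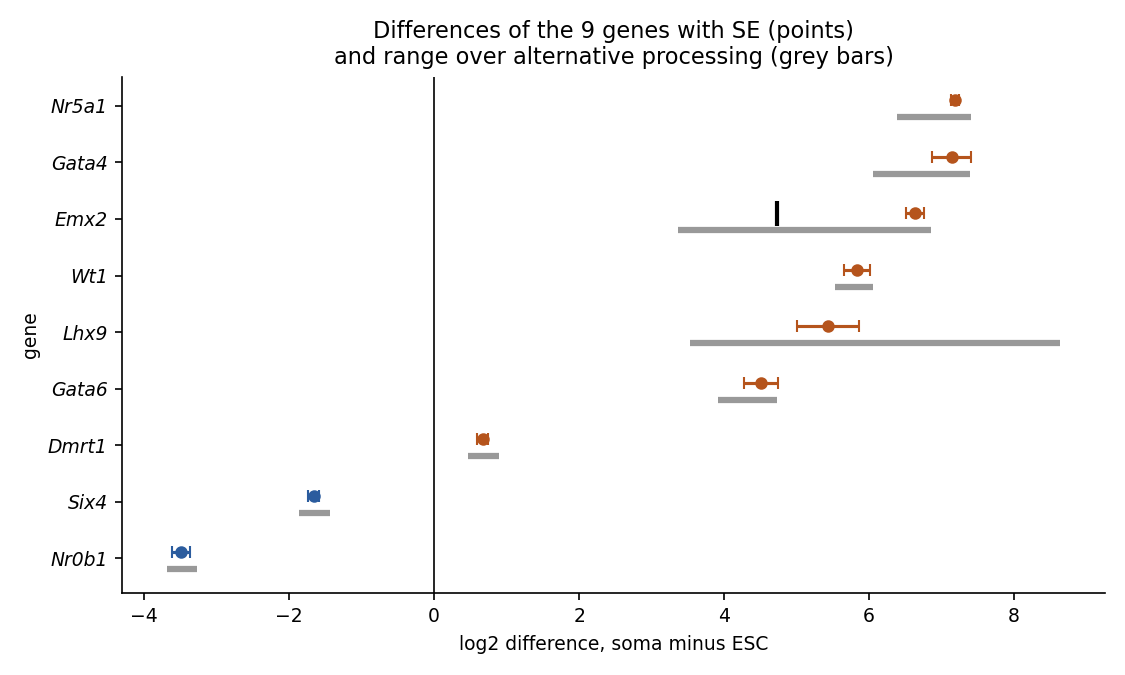
Log2 difference, soma minus ESC, of the 9 genes: points with bars show the fitted value and its SE (n = 3 per group), grey bars the range over 21 other settings (20 for Emx2 and Lhx9), and the black tick the bound of Emx2, 4.73. No range crosses 0; the ranges of Lhx9 (3.54 to 8.63) and Emx2 (3.37 to 6.85) are the widest.

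Family relatives of the members did not share one direction. Of 20 relatives 13 were tested, of which 4 passed as higher in soma and 6 as higher in ESC (median -0.35). Nr5a2, the closest relative of Nr5a1 and part of the stem cell network, was 119-fold higher in ESC (log2 -6.89 ± 0.15, SE, n = 3 per group, adjusted p 3.82e-07), the opposite of Nr5a1. Nr0b2, the relative of Nr0b1, was higher in soma by at least 2.18-fold, with no ESC array above background, so that its direction was fixed by the filter. Of the relatives of Six4, Six5 was 10.5-fold higher in soma while Six2 was 8.27-fold higher in ESC, with 1 soma array above background. The GATA relatives were small beside Gata4 and Gata6: Gata3 differed by 0.55 and Gata5 by -0.55 on the log2 scale, and Gata1 (-0.35) and Gata2 (0.47) did not pass. Lhx2, Emx1, Dmrt2, Dmrt3, Dmrta2, Six3 and Six6 were not well above background on all arrays of either group.

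Cofactors that the members bind were mostly present in both groups. Of 12 listed 11 were tested, of which 7 passed as higher in soma and 2 as higher in ESC (median 0.93). Zfpm2, also called FOG2, the partner of GATA4 in the gonad, was 42.6-fold higher in soma, with 2 of 3 ESC arrays above background (log2 5.41 ± 0.12, SE, n = 3 per group, adjusted p 4.72e-07), and its relative Zfpm1 1.91-fold. Ldb2, which bridges LIM-homeodomain factors such as LHX9, was higher in soma by at least 228-fold, whereas Ldb1 differed by -0.04 (adjusted p 0.501). No ESC array was above background for Ldb2, so the filter fixed its direction. Eya1, a transcriptional coactivator and phosphatase, was 1.85-fold higher in ESC (log2 -0.89), and Wtap, named for its binding to WT1, differed the same way (log2 -0.59).

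Other regulators of gonad formation and testis determination leaned to soma. Of 20 listed 19 were tested, of which 15 passed as higher in soma and 3 as higher in ESC (median 2.42, or 1.94 with genes at their bound). No ESC array was above background for 5 of the 19, so the filter fixed the direction of these. Of the 10 above background on all 6 arrays, 7 passed as higher in soma and 2 as higher in ESC. Nr2f2, an orphan nuclear receptor of interstitial cells, was higher in soma by 507-fold, with 2 of 3 ESC arrays above background, and Sox9, which drives Sertoli fate, by at least 25.7-fold. Cbx2, a Polycomb gene upstream of Sry, was 1.96-fold higher in soma. Kdm3a, a histone demethylase that acts on Sry, was 1.79-fold higher in ESC. Sry itself was not well above background on all arrays of either group.

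Genes known to be activated by these factors were mostly higher in soma. Of 15 listed 14 were tested, with 13 higher in soma, none higher in ESC and Podxl, a WT1 target, at 0.54 ± 0.23 (SE, n = 3 per group, adjusted p 0.0671). No probe matched Insl3. The median was 5.67, or 4.71 with genes at their bound, and 2.90 over the 8 above background on all 6 arrays. No ESC array was above background for 5 of the 14, so the filter fixed the direction of these. Of the 8 above background on all 6 arrays, 7 passed as higher in soma and none as higher in ESC. Hsd3b1, of steroid synthesis, was higher in soma by at least 1459-fold and Cyp11a1, which starts steroid synthesis from cholesterol, by at least 391-fold. Inha, which encodes the inhibin alpha chain, was 249.8-fold higher, and it was above background on 1 ESC array.

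**Figure D4:**
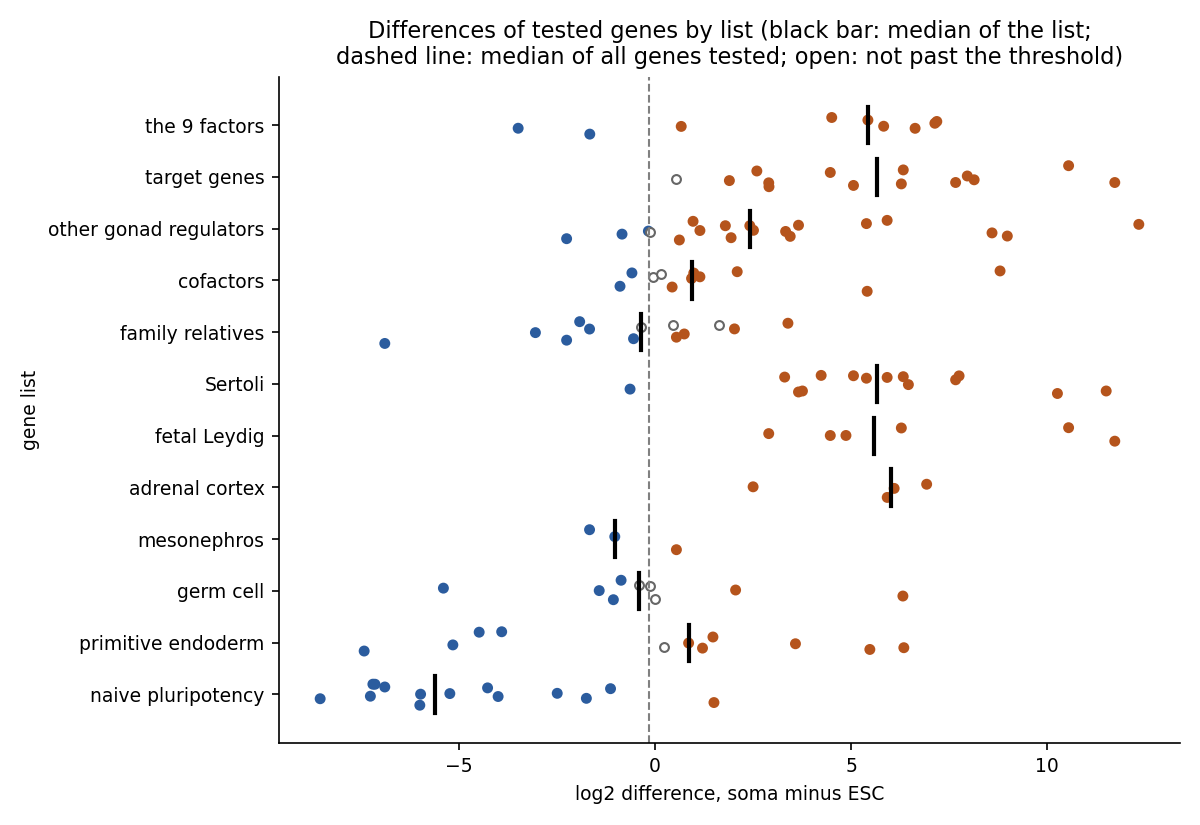
Log2 difference, soma minus ESC, of each tested gene in 12 lists; black bars are list medians, the dashed line is the median of all genes tested (-0.14), and open points did not pass an adjusted p of 0.05. The 9 factors span -3.49 to 7.19, while the target genes lie at or above 0.54.

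Markers of the cells that make up the gonad are given as a description. No ESC array was above background for 8 of 14 Sertoli, 3 of 6 Leydig, 3 of 8 interstitial, 3 of 4 adrenal and 4 of 7 coelomic genes tested, so the filter fixed the direction of these genes and their counts are no check of the label. Sertoli markers were higher in soma in 13 of 14 (median 5.66, or 4.38 with bounds; summed signal 135 to 146 in soma, 57.6 to 78.8 in ESC), led by Cst9, at least 827-fold, with Rhox8 1.55-fold higher in ESC. The Rhox8 call was lost under quantile normalization, with the slide as a fixed block and on the shared slide, and with the mean of a gene's probes all 14 were higher in soma. Leydig markers were higher in soma in 6 of 6 tested (median 5.58; summed signal 82.4 to 83.6 against 3.17 to 3.60), and interstitial markers in 8 of 8 (median 7.67, or 6.83 with bounds, and 1.27 over the 3 above background on all 6 arrays). Adrenal cortex markers, which share NR5A1 as their regulator, were higher in soma in 4 of 4 (median 6.01, or 4.16 with bounds; summed signal 2.21 to 2.66 against 0.138 to 0.148), with Mrap at least 26.9-fold higher. In each of these lists a single gene carried most of the ESC sum. Among Sertoli genes Rhox8 had a mean log2 scaled signal of 5.996 in ESC, and the next gene 1.95. Among Leydig genes Cyp17a1 had 1.65 in ESC, and the next gene -3.11. Among adrenal genes Cyp21a1 had -3.07 in ESC, and the next gene -6.59. These ESC sums therefore describe those genes more than their lists. Coelomic epithelium markers were higher in soma in 5 of 7, with Aldh1a2 36.7-fold higher. The other 2 were higher in ESC, Krt19 by 6.73-fold and Msln by at least 22.4-fold. No soma array was above background for Msln, so the filter fixed its direction too.

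Cells that could come along with the gonad were also measured. Of the mesonephric markers 3 of 7 were tested, Gata3 was higher in soma and Lhx1 (3.18-fold, 1 soma array above background) and Pax8 (2.03-fold) in ESC, and Pax2, Cdh16 and Wnt9b were not well above background on all arrays of either group. Their summed signal was 0.140 to 0.155 in soma and 0.237 to 0.240 in ESC. The Gata3 call was lost under quantile normalization, with the slide as a fixed block and on the shared slide. These stand beside Emx2 and Wt1, which the mesonephros also expresses. Blood and macrophage markers were higher in soma in 8 of 8 tested (Hbb-y, an embryonic globin gene, at least 10450-fold) and endothelial markers in 4 of 7, with 2 higher in ESC (Pecam1, 1.91-fold, and Tek, 1.39-fold) and Cdh5 at least 36.9-fold higher in soma. No ESC array was above background for 6 of those 8 and 3 of those 7, and of the 3 endothelial genes above background on all 6 arrays none passed as higher in soma and 2 passed as higher in ESC. In ESC, naive pluripotency markers were higher in 13 of 14 (median -5.60), led by Zfp42 at 372-fold and Tfcp2l1 at 153-fold, and Nanog was 2.84-fold higher in soma.

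The genes whose profile over the 6 arrays came nearest to each member were found by the root mean square distance between profiles centred on each gene's mean, among 11956 other named genes above background on all arrays. Since there are 2 groups, likeness here is mostly a like difference. Nearest to Nr5a1 were Hic1 (distance 0.12 on the log2 scale) and Cbln1 (0.15), and nearest to Wt1 were Hhip (0.18) and Wnt6 (0.20). Gata4 lay nearest to Pcdh18 (0.18) and Cygb (0.24), and Gata6 to Itga8 (0.05) and Pth1r (0.10). For Nr0b1 they were Crmp1 (0.04) and Gdf15 (0.09), for Six4 Chtf18 and Cipc (0.03 each), and for Dmrt1 Zfp777 and Fam149b (0.02 each). Nr5a1, Wt1 and Gata4 had no gene within 0.1, and Emx2 and Lhx9, dim in ESC, were not compared.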

How the data were processed

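Per the file headers, the scanner images were read with Feature Extraction 10.7.3.1, and the processed signal that the authors deposited is an intensity, after background subtraction and spatial detrending within the array. The log2 values of the deposited series matrix come with no stated scale or centring. On comparison they equalled the log2 processed signal less the 75th percentile of the array and less the probe's own 6-array median (within 0.01 for at least 99.96% of probes; column medians -0.25 to 0.161), and they served as an alternative.

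For each array the 75th percentile over gene probes was subtracted from the log2 processed signal. Control spots (1377) and spots marked as outliers did not enter. Probes had to be well above background on all arrays of at least 1 group (24150 of 39429). RefSeq transcript identifiers (GRCm38.p6) named 66.1% of probes, and no probe coordinates were used. A gene was its brightest kept probe by mean log2 signal. Limma 3.58.1 (R 4.3.3) tested soma against ESC, two-sided, at an adjusted p of 0.05 (Benjamini-Hochberg, 19664 genes), and all kept probes were fitted likewise. The code was tested on simulated data.

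The members and lists were chosen with earlier results of these data known. Genes named are the members, the 2 largest passing differences in each direction per list, and the 2 nearest profiles per member. Zfpm1, Ldb1, Sox9, Cbx2, Inha, Podxl, Gata1, Gata2, Gata5, Lama1, Lamb1, Cyp17a1 and Cyp21a1 were named after their values were seen. Alternatives covered normalization, background correction, filters, probe choice, variance model, slide, scan and replicate blocks, and each array left out. Some genes that the naming rule picks are not reported here.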

Additional observations from a re-analysis of the deposited data

How the results depend on the processing

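Each member kept its direction and passed the threshold in every setting in which it was tested. The filter that keeps only probes above background on all 6 arrays tested 7 member probes, all passing, in place of 11, because Emx2 and Lhx9 left. With the slide as a fixed block or on the shared slide alone, 10 member probes passed. Of the list counts, 28 moved by over 1.5 times, most of them under the same filter, which tests fewer genes, and 602 did not. The replicate numbers did not pair the samples: same-numbered soma and ESC deviations correlated at -0.05, 0.07 and 0.03. The replicate block gave 16473 called genes against 16705, with 7 members higher in soma and 2 in ESC as before. The scan as a random block, the brightest probe by linear signal and the settings for member probes were added after seeing the data. Low signal limits the ESC side of Emx2 and Lhx9, and normexp, run on the spots' median signal, shrank their differences most, and those of Nr5a1, Gata4 and Gata6 by over 1.5 times in fold.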
